A study of Mus musculus with 6 samples.

Results

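The 9 genes described here, Fgf8, Fgf17, Fgf18, Fgf15, En1, En2, Gbx2, Otx1 and Otx2, belong to the isthmic organiser and to the border between midbrain and hindbrain. They were chosen by name: every probe whose platform annotation carries one of these symbols was taken, 13 probes of 34881 with a single symbol, for 9 of 19054 named genes. Of these, 8 genes with 10 probes were above background on enough arrays to be tested, among 10524 genes tested. Levels were read in each pool as a check of the dissection and of the state of the organiser.

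The isthmus is the constriction between midbrain and hindbrain, and its cells signal to both sides. Otx2 is expressed in front of the border and Gbx2 behind it, each transcription factor represses the other, and Fgf8 is switched on where the domains meet. Fgf8 protein, together with its close relatives Fgf17 and Fgf18, keeps En1 and En2 expressed across midbrain and rhombomere 1 and patterns both regions. Rhombomere 1, the foremost hindbrain segment, lies just behind the border and lacks Hox gene expression.

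Rhombomere 1 was dissected at E12.5 from mice of strain ICR (CD-1). Mutants carried En1-cre and 2 floxed Gata2 alleles. Controls, titled wildtype, carried En1-cre and 1 floxed allele beside 1 that was not floxed, so both groups had the recombinase. En1-cre acts where En1 is expressed, that is in midbrain and rhombomere 1. The labels do not say whether the driver occupies an En1 allele, which matters for reading En1 itself, although it was shared by all pools. Each group held 3 pools of 6 dissected pieces, 1 pool per Illumina bead array, on which the brightness of a probe reports the RNA of its gene. The column names number the arrays 5R, 6R and 7R for controls and 1R, 2R and 3R for mutants.

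Between 42.8% and 45.1% of probes were above background on an array, and all pairs of arrays correlated at 0.988 to 0.993 across probes, which are not independent. The Gata2 probe was not lower in mutants, with means of 10.53 in controls and 10.89 in mutants and an adjusted p of 0.412 in limma, and the sources used here do not place it inside or outside the deleted part. Over all genes tested, 18 passed the threshold, a limma p below 0.05 after Benjamini-Hochberg adjustment, which is 0.171% of 10524. That count was 52 without mutant array 1R and 11 without control array 5R. All values below are normalized log2 intensities, and all differences are mutant minus control on that scale, ± limma's standard error, for 3 pools per group. Intervals are 95% intervals of single genes, not widened for the number of genes. In pooled tissue, fewer cells of a type and less RNA per cell cannot be told apart. A probe's brightness depends on the probe, so levels are compared between pools and not between genes.

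None of the 8 members tested passed the threshold in limma, against a background of 0.171% of all genes, and for none were the groups apart, against 14.1% of all genes whose groups did not overlap. At an unadjusted p under 0.05 there were 2 members, Fgf8 and Fgf17, both higher in mutants, where 8.83% of all genes reached that level and 4.34% did so with mutants higher. The differences of the 8 members ran from -0.25 to 0.67 with a median of -0.03, 4 above 0 and 4 below, and the median of all genes was 0.01. With intervals as wide as those below, differences of these sizes in either direction were not resolved by 3 pools per group.

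**Figure D1:**
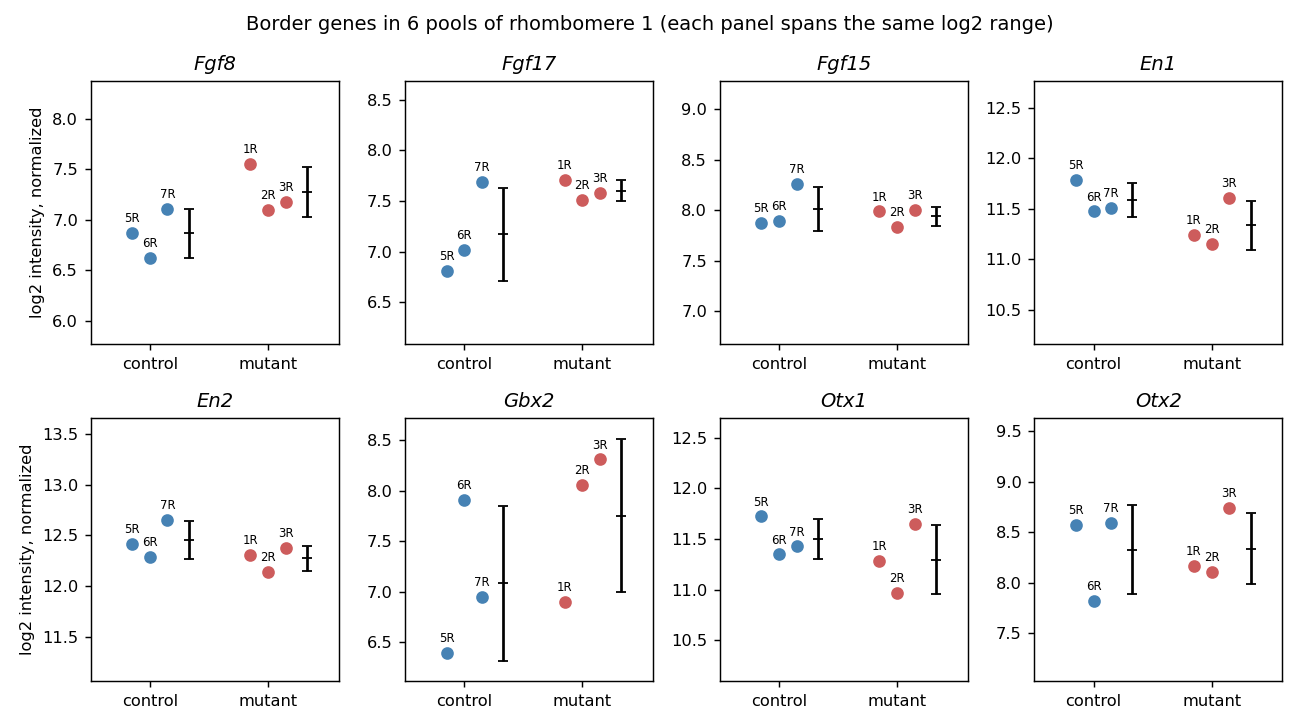
Normalized log2 intensity of the 8 border genes above background in each pool, labelled by array; blue points are controls, red points mutants, and black marks give mean ± SD (n = 3). Every panel spans the same log2 range; Gbx2 has the widest scatter, from 6.40 to 8.31, and the groups overlap in all panels.

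Fgf8, the signal that gives the isthmus its organising activity, measured 6.87, 6.62 and 7.11 in control pools 5R, 6R and 7R and 7.56, 7.10 and 7.17 in mutant pools 1R, 2R and 3R. The highest control and the lowest mutant pool met at 7.11 and 7.10, and the other mutant pools lay above all controls. The means were 6.87 ± 0.24 and 7.28 ± 0.24 (SD, n = 3), a difference of 0.41 ± 0.16 (interval 0.06 to 0.76; unadjusted p = 0.0246, limma adjusted p = 0.510), or 1.33-fold. With each array scaled to the same median and no quantile step, the Fgf8 groups did not overlap, at most 6.99 in controls against at least 7.15 in mutants (difference 0.48, adjusted p = 0.334). That scaling moved the median difference of all genes from 0.01 to 0.08, and under it 15.2% of all genes had every mutant pool above every control pool, against 7.69% before. A second Fgf8 probe was above background on 0 of 6 arrays and gives no reading of the gene.

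Fgf17, a near relative of Fgf8 expressed more broadly around the isthmus, measured 6.81, 7.02 and 7.68 in control pools 5R, 6R and 7R and 7.71, 7.51 and 7.58 in the mutant pools in order of array number. Controls 5R and 6R were the low pools, while control 7R reached the mutant level. The means of Fgf17 were 7.17 ± 0.46 and 7.60 ± 0.10 (SD, n = 3), and the difference was 0.43 ± 0.19 (interval 0.02 to 0.84; unadjusted p = 0.0402, limma adjusted p = 0.550), or 1.35-fold. Leaving out control 7R raised it to 0.69 (adjusted p = 0.169), and leaving out control 5R lowered it to 0.25 (adjusted p = 0.936). Under the same median scaling the Fgf17 difference was 0.50 (adjusted p = 0.362), and the groups lay 7.56 at most against 7.57 at least, beside the same 15.2% of all genes. The dimmer Fgf17 probe, above background on 3 of 6 arrays, had a difference of 0.02 (interval -0.35 to 0.39), and the mean of both probes differed by 0.23, so the value rests on the brighter probe.

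Fgf15, a more divergent member of the family that also acts as a gut hormone, is expressed in embryonic brain beyond the isthmus. It measured 7.87, 7.90 and 8.26 in controls and 7.99, 7.83 and 8.00 in mutants. These pools lay close together, control 7R being the high one, and the difference was -0.07 ± 0.13 (interval -0.35 to 0.21; adjusted p = 0.908). Fgf18, the third Fgf of the isthmus in the Fgf8 subfamily, was not measured: 1 of its probes was above background on 0 of 6 arrays and the other on 2, control 5R and mutant 3R.

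En1 and En2, homeodomain repressors kept on by isthmic Fgf and needed for midbrain and cerebellum, were above background on every array. En1 measured 11.78, 11.47 and 11.51 in controls and 11.24, 11.16 and 11.61 in mutants. Mutant 3R lay among the controls and the other mutant pools lay below them. The difference was -0.25 ± 0.13 (interval -0.53 to 0.03; adjusted p = 0.609), -0.39 without mutant 3R (adjusted p = 0.371), and the dimmer En1 probe gave -0.14 (interval -0.40 to 0.13). En2 measured 12.41, 12.29 and 12.66 in controls and 12.31, 12.14 and 12.37 in mutants, a difference of -0.18 ± 0.11 (interval -0.42 to 0.06; adjusted p = 0.686). For both genes the interval holds 0 as well as larger falls than the one measured.

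Gbx2, the homeodomain factor that holds the rear side of the border, varied most. It measured 6.40, 7.91 and 6.95 in control pools 5R, 6R and 7R and 6.90, 8.06 and 8.31 in mutant pools 1R, 2R and 3R. Each group held both low and high pools: 5R, 7R and 1R were low, and 6R, 2R and 3R were high, with no pool between 6.95 and 7.91. The means were 7.09 ± 0.77 and 7.75 ± 0.75 (SD, n = 3), and the difference of 0.67 ± 0.36 (interval -0.11 to 1.45; adjusted p = 0.628) was smaller than the SD within either group. It was 0.32 without control 5R and 1.10 without mutant 1R, where the adjusted p was 0.179. The pooled within-group SD of 0.76 was above that of 99.7% of the 1574 genes whose mean level lay within 0.5 log2 of Gbx2, whose median SD was 0.15.

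Otx1 and Otx2, homeodomain factors of forebrain and midbrain on the front side of the border, were above background on all 6 arrays in tissue labelled as hindbrain. Otx2 measured 8.57, 7.82 and 8.59 in controls and 8.17, 8.11 and 8.74 in mutants. Control 6R was the lowest pool and mutant 3R the highest, and the groups ran over the same range. The Otx2 difference was 0.01 ± 0.21 (interval -0.44 to 0.46; adjusted p = 0.992), with -0.24 when control 6R was left out. Otx1 measured 11.72, 11.35 and 11.43 in controls and 11.28, 10.96 and 11.65 in mutants, a difference of -0.20 ± 0.15 (interval -0.53 to 0.13; adjusted p = 0.754). The pooled SD of Otx2, 0.40, exceeded that of 98.6% of genes of like level, and that of Otx1, 0.28, exceeded that of 96.2%. For Fgf17 the share was 95.3%, for En1 89.1%, for Fgf8 84.4%, for En2 76.5% and for Fgf15 61.7%. All 8 members thus varied within groups more than most genes of like level did.

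**Figure D2:**
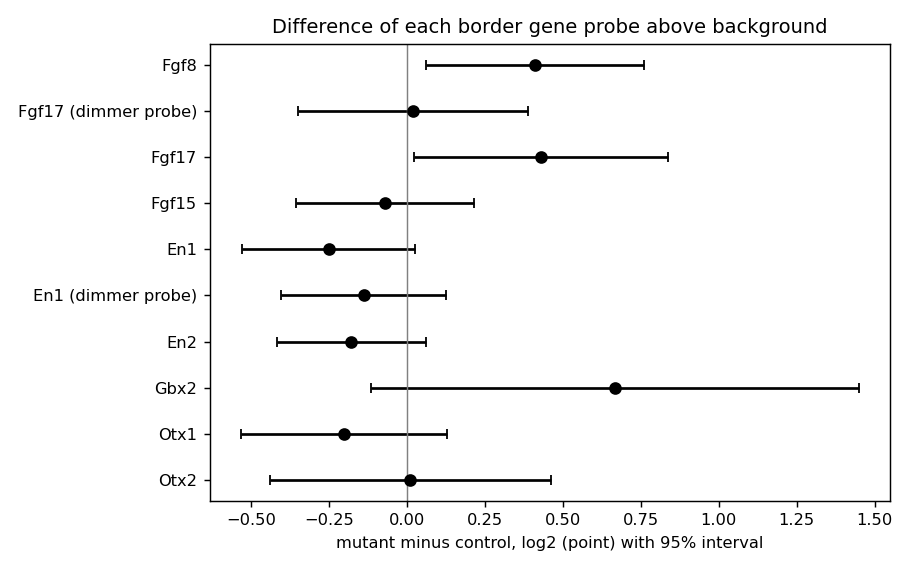
Mutant minus control difference (log2, points) with 95% interval (bars) for the 10 border gene probes above background. The brighter probes of Fgf8 and Fgf17 have intervals just above 0 before adjustment for the number of genes, the dimmer Fgf17 probe is at 0.02, and Gbx2 has the widest interval, -0.11 to 1.45.

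The dissection was read from genes of the neighbouring brain parts, since a cut placed farther forward or back would change what a pool holds. Of 14 genes of the hindbrain behind rhombomere 1, 12 had a named probe and 2 of these were measured, Hoxa2 and Hoxb2; Egr2 and the other Hox genes with a probe did not pass the detection filter. Hoxa2, a Hox gene with its front limit in the second rhombomere, measured 4.85, 5.50 and 4.84 in controls and 4.56, 5.70 and 5.95 in mutants. The high pools were 6R, 2R and 3R, the same pools that were high for Gbx2, and only on these arrays was Hoxa2 above background. A second Hoxa2 probe, which measured 4.54, 5.25 and 4.47 in controls and 4.47, 5.49 and 5.65 in mutants, was above background on the same 3 arrays. Hoxb2 did not follow this order, with 5.06, 5.14 and 5.08 in controls and 4.78, 4.84 and 5.06 in mutants. It was above background on all 3 control arrays but on only 1 of 3 mutant arrays. Its groups did not overlap, as was so for 14.1% of all genes. Neither Hox gene passed (Hoxa2 difference 0.34, adjusted p = 0.793; Hoxb2 difference -0.20, adjusted p = 0.750). The comparison of Gbx2 with Hoxa2 was made after their values were seen, and the part of the cut in the Gbx2 levels was not tested.

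**Figure D3:**
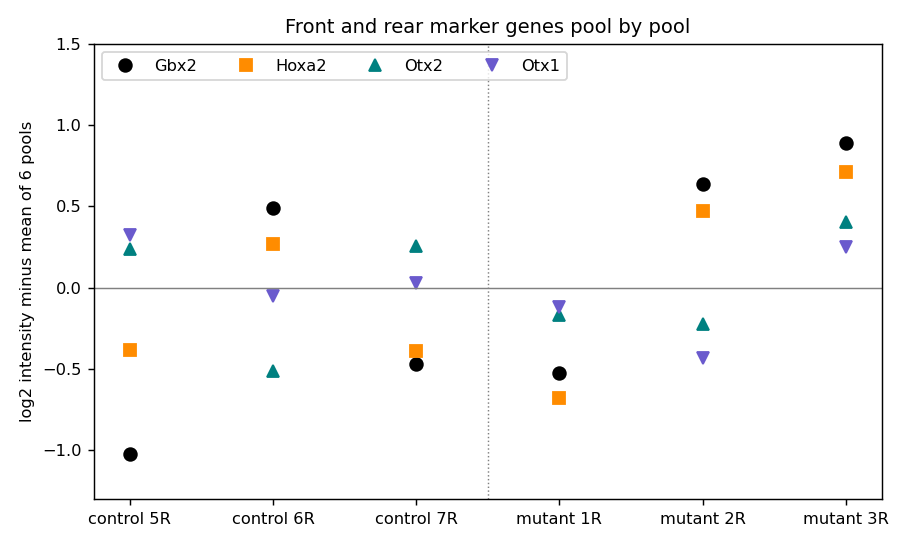
Log2 intensity of Gbx2, Hoxa2, Otx2 and Otx1 in each pool, minus the gene's mean over the 6 pools; the dotted line separates controls from mutants. Gbx2 and Hoxa2 are both above their means in control 6R and mutants 2R and 3R and below in the other 3 pools. Otx1 and Otx2 lie on the opposite side of their means in controls 5R, 6R and 7R and mutant 2R. In mutants 1R and 3R they lie on the same side as Gbx2 and Hoxa2.

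On the front side, 9 of 11 genes of midbrain and forebrain had a named probe. All but Fezf2, a forebrain factor, failed the detection filter, among them Dmbx1, a midbrain gene. Fezf2 was above background on all 6 arrays, with a difference of 0.09 (adjusted p = 0.907). In pool 3R of the mutants Otx2, Otx1, Gbx2 and Hoxa2 were all above their means, and in mutant 1R all were below. In controls 5R, 6R and 7R and mutant 2R, Otx1 and Otx2 lay on the opposite side of their means from Gbx2 and Hoxa2. The part of the cut in these orders was not tested. Of 5 genes of the dorsal part of rhombomere 1, Lhx9 was measured, at 0.05 (adjusted p = 0.951), while the probes for Atoh1, Ptf1a and Barhl1 did not pass the filter. Irx2, an Iroquois factor that works with Fgf8 in cerebellar development in the chick, was bright in every pool, from 11.77 to 12.14, with a difference of -0.09 (adjusted p = 0.849).

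Markers of other cells a piece could hold were read in the same way, as normalized linear intensity, offset included, summed over the genes measured. For roof plate and choroid plexus, where Otx2 is also expressed, 3 of 8 genes were measured, Lmx1a, Msx1 and Folr1, and their sum ran from 195 to 210 in controls and from 188 to 223 in mutants; Ttr, the defining product of choroid plexus, did not pass the filter. For mesenchyme 2 of 7 were measured, Twist1 and Foxc1, with sums of 91.2 to 122 in controls and 95.4 to 128 in mutants, and the probes for Col1a1, Col1a2 and Col3a1 did not pass. For vessels, blood and microglia 7 of 8 were measured, and sums were 27671 to 31178 in controls and 30489 to 34109 in mutants. The 3 globins made up at least 99.0% of this sum on every array, and the 4 other genes, Csf1r, Aif1, Pecam1 and Cdh5, summed to 252 to 300 in controls and 248 to 271 in mutants. Of the embryonic globins, Hbb-y overlapped between groups (difference 0.03, adjusted p = 0.949). Hbb-bh1 (difference 0.53, adjusted p = 0.292) and Hba-x (0.41, adjusted p = 0.375) were higher in every mutant pool than in any control pool. That held for 7.69% of all genes. These 2 passed in limma without mutant array 1R (adjusted p = 0.00782 and 0.0416), where 52 of all genes passed against 18 with all arrays. With all arrays 0 genes of these lists passed in limma. An unadjusted limma p under 0.05 was reached by 3, Hbb-bh1, Hba-x and the microglial receptor Csf1r (-0.39, adjusted p = 0.498), and by 8.83% of all genes. Csf1r was lower in every mutant pool than in any control pool, but was above background on only 1 of 3 mutant arrays. Groups lay apart, in either direction, for 14.1% of all genes. The part of blood in the member values was not tested. The corresponding sums for the genes behind rhombomere 1, Hoxa2 and Hoxb2, were 62.2 to 80.5 in controls and 51.0 to 94.9 in mutants. On the front and dorsal lists only 1 gene each was measured. Fezf2 alone ran from 35.9 to 46.1 in controls and 37.3 to 50.6 in mutants, and Lhx9 alone from 206 to 289 and 228 to 284.

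Fgf signals are read by receptor tyrosine kinases and turn on both effectors and their own inhibitors, and genes downstream were therefore read beside the ligands. Of 13 targets and feedback inhibitors, 11 had a named probe and 8 were measured, of which 0 passed (limma adjusted p under 0.05). One of the 8, Etv4, met the detection filter through its mutant arrays alone and is left out of the following counts. The differences of the 7 others lay above 0, with a median of 0.21, where 53.3% of all genes above background in both groups lay above 0 and their median was 0.01. In 2 of the 7, Etv5 and Spry4, all mutant pools were above all control pools, which held for 7.51% of those genes. These 2 had an unadjusted limma p under 0.05, as did 910 of those 10490 genes in either direction. With the stricter filter 6 were measured, all above 0 (median 0.15). The direction of 1 target turned without control 6R, without mutant 2R or without mutant 3R. With Etv4 counted, the median was 0.25 in the fit used throughout and ran from 0.12 to 0.38 over 16 alternatives. Only the stricter filter left Etv4 out, so this is not the range of the median of the 7.

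Etv4, an Ets factor induced by Fgf, measured 4.71, 4.71 and 4.68 in controls and 5.33, 5.23 and 5.08 in mutants. Its probe was above background on 0 of 3 control arrays and on all 3 mutant arrays. With controls raised to the lowest level read as above background, the means differed 1.17-fold, a value that leaves out sampling error. The measured Etv4 difference was 0.52 ± 0.15 (limma adjusted p = 0.331), so a rise was not resolved. Etv5, its paralog, measured 6.35, 6.46 and 6.49 in controls and 7.01, 6.74 and 6.65 in mutants, a difference of 0.37 ± 0.14 (adjusted p = 0.478). In both genes mutant 1R was the highest pool, as it was for Fgf8 and Fgf17 and for the targets Etv1 and Il17rd. It was not the highest pool for Spry4, Flrt3 or Spred1. For Dusp6 mutant 1R was the lowest of all pools, at 9.73. Spry4, a feedback inhibitor of receptor tyrosine kinase signalling, measured between 4.76 and 5.01 in controls and 5.12, 5.45 and 5.26 in mutants, a difference of 0.35 ± 0.16 (adjusted p = 0.550). Of the other targets, Etv1, an Ets factor, was at 0.29 (interval -0.04 to 0.63), the receptor inhibitor Il17rd at 0.21 (interval -0.20 to 0.61) and Flrt3, a membrane protein that binds Fgf receptors, at 0.10 (interval -0.14 to 0.35). Dusp6, a phosphatase that inactivates ERK, was at 0.02 (interval -0.24 to 0.28) and the inhibitor Spred1 at 0.05 (interval -0.17 to 0.27).

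Of 7 receptors and adaptors, 5 were measured and 0 passed in limma, with 0 at an unadjusted p under 0.05; 4 differences lay above 0 and the median was 0.11. The receptors Fgfr3 and Fgfr2 were at 0.24 (adjusted p = 0.666) and 0.20 (adjusted p = 0.673), Fgfr1, the main receptor of isthmic Fgf8 in the mouse, at -0.10 (interval -0.46 to 0.27), and Fgfrl1, a receptor without a kinase domain, at 0.11. Of 7 other factors of the border, 4 were measured, 0 passed and 3 differences lay below 0, with a median of -0.07. Pax8, a paired box factor, measured 5.85, 6.31 and 6.21 in controls and 6.08, 5.30 and 5.44 in mutants, a difference of -0.51 ± 0.20 (interval -0.95 to -0.08; unadjusted p = 0.0244, adjusted p = 0.510), where mutant 1R lay among the controls. Lmx1b, above background on only 1 control and 2 mutant arrays, was at 0.13 (adjusted p = 0.888). Sp8, a zinc finger factor that acts on Fgf8, was at -0.04 (adjusted p = 0.951). The probes for Pax2, Pax5 and Wnt1, which set up the isthmus with Fgf8, did not pass the detection filter, so these genes were not measured.

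**Figure D4:**
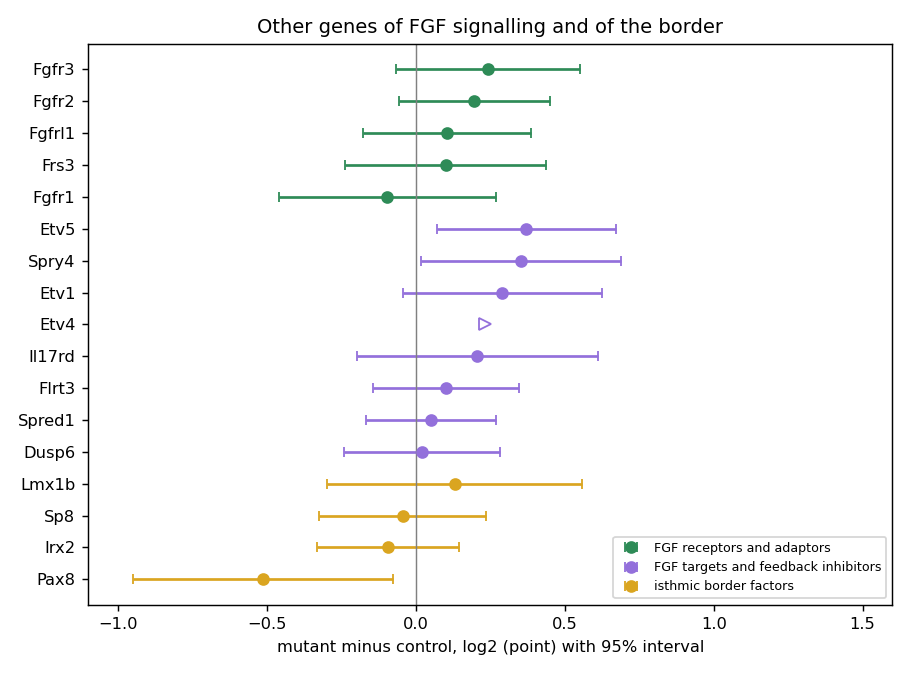
Mutant minus control difference (log2, points) with 95% interval (bars) for the measured FGF receptors and adaptors (green), FGF targets and feedback inhibitors (purple) and other border factors (gold). The open triangle, 0.23, is the Etv4 difference with controls raised to the lowest level read as above background. Etv4 was above background on 0 control arrays and has no interval. The other 7 purple points lie above 0, from 0.02 for Dusp6 to 0.37 for Etv5, and Pax8 lies lowest at -0.51.

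The members did not move as a block from pool to pool. Over the 6 arrays, the correlation with Fgf8 was 0.80 for Fgf17, 0.29 for Fgf15, 0.27 for Otx2, 0.02 for En2, -0.15 for Gbx2, -0.20 for Otx1 and -0.46 for En1. With Otx2 it was 0.68 for Otx1, 0.62 for En2, 0.60 for En1, and -0.23 for Gbx2. The genes most like Fgf8 among 10523 were Luc7l (0.996), Chaf1b (0.987) and Fam193b (0.987), and 121 genes exceeded 0.9. Those most like Otx2 were Dapk2 (0.995), Amz2 (0.992) and Hnrnpll (0.987), with 23 genes above 0.9. For Gbx2, added after its values were seen, they were Mpv17 (0.999), Zfp511 (0.995) and Mknk2 (0.993), and Hoxa2 (0.926) ranked 70 among 125 genes above 0.9. These values describe 6 arrays that share normalization and group, and with so few points high correlations are common.

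Promoter windows of 300 bases, most of them before the start site, were found in RefSeq (GRCm38.p6) for 4 of the 9 members, Fgf18, En1, Gbx2 and Otx2, in 7 windows. They are shown for Gbx2, the member that varied most, for Otx2, its counterpart across the border, and for En1, whose expression the Cre driver follows. Letters searched on both strands were AGATAA or AGATAG or TGATAA or TGATAG for GATA factors, TAATCC for Otx factors, and TAATTA for En and Gbx homeodomains, and matches are in capitals (a match on the other strand appears as its reverse complement).
Gbx2 (chr1:89931127-89931426, - strand): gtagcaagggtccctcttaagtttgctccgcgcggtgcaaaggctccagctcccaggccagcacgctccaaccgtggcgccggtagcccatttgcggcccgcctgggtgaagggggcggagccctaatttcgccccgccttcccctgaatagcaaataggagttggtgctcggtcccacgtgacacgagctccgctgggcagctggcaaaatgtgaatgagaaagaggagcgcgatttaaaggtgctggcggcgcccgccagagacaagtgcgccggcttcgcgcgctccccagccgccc
En1 (chr1:120602237-120602536, + strand): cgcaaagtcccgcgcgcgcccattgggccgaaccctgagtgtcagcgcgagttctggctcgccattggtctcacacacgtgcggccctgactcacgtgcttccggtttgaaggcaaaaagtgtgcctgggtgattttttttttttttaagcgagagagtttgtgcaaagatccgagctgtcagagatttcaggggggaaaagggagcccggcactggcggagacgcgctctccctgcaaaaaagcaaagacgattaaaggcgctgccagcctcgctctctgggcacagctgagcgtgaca
Otx2 (chr14:48665060-48665359, - strand): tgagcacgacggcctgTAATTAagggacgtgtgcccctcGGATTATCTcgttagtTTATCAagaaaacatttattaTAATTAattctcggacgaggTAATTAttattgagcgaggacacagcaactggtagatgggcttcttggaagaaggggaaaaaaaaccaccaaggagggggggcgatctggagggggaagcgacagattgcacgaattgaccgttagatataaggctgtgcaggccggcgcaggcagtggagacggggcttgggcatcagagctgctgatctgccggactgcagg
The Gbx2 and En1 windows held 0 matches to any of these letters, as did that of Fgf18. The Otx2 window shown is the third of 4 and the one with the most matches. It held 2 GATA matches, 1 Otx match that overlaps a GATA match, and 3 matches to TAATTA. The other Otx2 windows held 0, 0 and 1 GATA matches, 0 Otx matches, and 1, 0 and 0 matches to TAATTA. The first and second of these other windows overlap each other. Among 32851 promoter windows of the same length, 29.8% held a GATA match, 7.06% an Otx match and 5.29% a TAATTA match. These are shares of single windows and not of the richest window of a gene. A match describes the letters of a window and does not show that a factor binds there.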

How the data were processed

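Members and gene lists were chosen with earlier results of these data known. The authors deposited linear probe intensity for 6 arrays, not normalized, each column followed by a detection p-value (whether a probe exceeds background), per the file headers; GenomeStudio 1.0 is named in the submitters' processing notes, with no role stated. Array numbers appear in no sample title, so each column served as a replicate of its group only. The authors' other table, of normalized intensity, served as an alternative. Intensity was background-corrected from the detection p-values, quantile-normalized and log2-transformed in limma 3.58.1 under R 4.3.3 (neqc, offset 16); this correction widens differences of dim genes. Of 45276 probes, 19936 were detected (p-value below 0.05) on 3 or more of the 6 arrays and entered the fit (lmFit, eBayes with trend, 8.98 prior degrees of freedom). Each gene was read at its brightest probe over all arrays, and p-values were adjusted over 10524 genes (Benjamini-Hochberg, threshold 0.05). The fit was tested on simulated data. Named were all members and, from each list, the genes past the threshold and the 3 with the smallest p; other list genes were named after their values were seen. Alternatives were an offset of 50, no background correction, scaling to equal medians, the normalized table with and without a replicate block, no or a stricter detection filter, no trend, array weights, the mean of a gene's probes, and leaving out each array. The number of arrays limits the precision. Pools are called biological replicates in the series' design text.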

Additional observations from a re-analysis of the deposited data

How the results depend on the processing

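No member and no member probe passed the threshold in limma under any alternative run, and the lowest adjusted p was 0.169, for Fgf17 without control array 7R. Over 16 alternatives the difference ran from 0.27 to 0.53 for Fgf8, 0.23 to 0.69 for Fgf17, 0.32 to 1.10 for Gbx2, -0.39 to -0.15 for En1, -0.26 to -0.08 for En2 and -0.38 to -0.04 for Otx1, each with its sign kept. The sign of Fgf15 (-0.14 to 0.06) and of Otx2 (-0.24 to 0.14) turned in 2 alternatives each. The count of all genes past the threshold, 18 with all arrays, ran from 11 to 52 when 1 array was left out. With the replicate block on the authors' normalized table it was 14, and 0 members passed; same-numbered pools correlated at -0.04, -0.09 and -0.30 in their deviations from group means, so the numbers were not treated as pairs. Median scaling shifted the median difference of all genes from 0.01 to 0.08. Signals of Fgf18 and of Pax2, Pax5 and Wnt1 near background limit what can be said of them.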
